A study of Mus musculus with 6 samples.

Results

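Pyroptosis and necroptosis are inflammatory forms of cell death, and 10 of their genes (Zbp1, Ripk3, Mlkl, Nlrp3, Casp1, Casp4, Casp12, Gsdmd, Il1b and Il18) are described here in mouse heart ventricle. They are 10 of the 18193 genes with a probe set annotated to a single symbol, and 12 of the 45037 probe sets that were not array controls carry their symbols. The genes were selected by symbol for their place in these pathways, and were chosen from a table whose Trex1 KO and Trex1 WT signals were already known. Their differences between the genotypes are therefore a description, and nothing is concluded from them. RNA came from 3 Trex1 KO mice (knockout of Trex1, the main DNA exonuclease of the cytosol) and 3 Trex1 WT mice. All 6 animals were also Rag2 knockouts, in which mature T and B cells do not form, so the controls lack them too. The animals were 3 littermate pairs (A, B and C) with 1 animal of each Trex1 genotype, and 1 array was hybridised per animal; values for A to C are given in that order. The sources used here do not give age, strain, sex, the form of the Trex1 allele or any treatment.

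In necroptosis the kinase RIPK3 phosphorylates the pseudokinase MLKL, which then breaches the plasma membrane. ZBP1 binds left-handed (Z-form) nucleic acid and engages RIPK3, and it is known as an interferon-inducible gene. In pyroptosis, sensors such as NLRP3 assemble inflammasomes that activate caspase-1, mouse CASP4 (also called caspase-11) responds to bacterial lipopolysaccharide, and these caspases cut gasdermin D into a pore-forming fragment. Caspase-1 also matures interleukin 1 beta and interleukin 18, the secreted cytokines of the pathway. In the heart these genes are known mostly from macrophages and other non-muscle cells, and bulk tissue cannot tell a change in the number of such cells from a change in RNA per cell.

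Values are MAS5 signals, a summary of each probe set's brightness in arbitrary units on a linear scale, and a log2 difference is Trex1 KO minus Trex1 WT on log2(signal + 16), which understates differences of dim probe sets. Signals of different probe sets are not comparable with each other. The targeted transcript was checked first, and it followed the labels on every array, although whether its probe lies in the deleted part is not known. The probe set of Trex1, annotated to Atrip as well, had signals of 9.45, 20.6 and 34.2 in Trex1 KO A to C, against 714, 340 and 887 in Trex1 WT A to C. Bacterial control probe sets reached 69.8 at most, which serves here as an upper mark of background. The 7 cardiomyocyte markers had summed signals of 274974 to 304159 in Trex1 KO and 251711 to 319287 in Trex1 WT hearts. Of the 6 T and B lymphocyte markers with a probe set, 0 were bright enough to test, and Cd3e, Cd3d, Cd79a and Cd79b stayed at or under the highest bacterial control on all 6 arrays. The other two passed it on 1 array each, Ms4a1 with 82.0 in Trex1 KO A and Cd3g with 75.2 in Trex1 WT C, and Ms4a1 was higher on every Trex1 KO array (82.0, 49.9 and 22.9 in A to C) than on any Trex1 WT array (22.1, 19.4 and 19.4). The Actb 3' to 5' signal ratio, a sign of RNA integrity, was 1.66, 1.60 and 1.68 in Trex1 KO A to C and 2.09, 2.29 and 1.80 in Trex1 WT A to C, so it separated the genotypes. The same ratio of Gapdh did not, at 0.849, 0.885 and 0.841 in Trex1 KO A to C and 0.904, 0.925 and 0.850 in Trex1 WT A to C. The 18S signal was 2834, 1907 and 798 in Trex1 KO A to C and 12811, 13708 and 924 in Trex1 WT A to C, which sets Trex1 WT A and B apart. Replicates are separate animals, and p-values set the genotype difference against the spread between mice of the same genotype. Littermate pairs enter a fit only where a block is named.

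Casp1, Casp4 and Casp12 lie next to each other on mouse chromosome 9, with 0 annotated protein-coding genes between neighbours, and their promoter windows are shown because the 3 genes can be compared as a cluster. Il18 and Trex1 are on the same chromosome, with 465 protein-coding genes between Casp12 and Il18 and 542 between Il18 and Trex1. The windows run from 250 bases before to 50 bases after the RefSeq start (GRCm38.p6, plus strand, 5' to 3'), at chr9:5298267-5298566 for Casp1, chr9:5308599-5308898 for Casp4 and chr9:5345226-5345525 for Casp12. Capitals mark matches to an ISRE core (GAAANNGAAA, the site of interferon regulatory factors) or the NF-kappaB consensus, searched on both strands.

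Casp1 promoter: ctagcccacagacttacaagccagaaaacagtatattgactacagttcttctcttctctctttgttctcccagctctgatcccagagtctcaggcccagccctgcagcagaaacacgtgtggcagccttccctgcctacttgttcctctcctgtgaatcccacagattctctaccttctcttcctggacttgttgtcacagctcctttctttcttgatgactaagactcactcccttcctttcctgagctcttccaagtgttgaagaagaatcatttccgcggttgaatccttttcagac

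Casp4 promoter: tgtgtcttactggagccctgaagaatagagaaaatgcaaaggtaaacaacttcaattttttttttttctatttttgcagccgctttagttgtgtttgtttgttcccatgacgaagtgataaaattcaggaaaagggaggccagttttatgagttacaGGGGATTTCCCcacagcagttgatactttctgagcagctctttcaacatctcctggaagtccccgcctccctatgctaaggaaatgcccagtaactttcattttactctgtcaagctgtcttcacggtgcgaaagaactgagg

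Casp12 promoter: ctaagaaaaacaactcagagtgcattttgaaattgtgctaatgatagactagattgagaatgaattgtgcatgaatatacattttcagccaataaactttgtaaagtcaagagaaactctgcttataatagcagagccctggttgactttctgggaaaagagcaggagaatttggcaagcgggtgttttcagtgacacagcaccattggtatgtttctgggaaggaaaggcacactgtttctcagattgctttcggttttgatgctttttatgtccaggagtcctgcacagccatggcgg

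The Casp4 window held overlapping NF-kappaB matches in the run GGGGATTTCCC, starting 93 and 92 bases before the start site, and the Casp1 and Casp12 windows held no match. RefSeq windows were matched for 8 of the 10 genes (10 windows, with Zbp1 and Gsdmd unmatched), and 0 of the 10 held an ISRE core, which 3.44% of all 32851 windows held. The NF-kappaB consensus was in 3 of the 10 and in 4.51% of all. Of the 3, 2 are overlapping windows of Casp4 that hold the same match and 1 is of Nlrp3, so 2 of 8 genes had it. A match describes these letters and is not a shown binding site.

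Zbp1 was the member with the widest gap between the genotypes. Its brighter probe set (1429947_a_at) had signals of 426, 568 and 554 in Trex1 KO A to C, against 92.4, 211 and 104 in Trex1 WT A to C. Every Trex1 KO array was above every Trex1 WT array, with the lowest Trex1 KO animal being A and the highest Trex1 WT animal being B. The means were 516 ± 78.2 in Trex1 KO and 136 ± 65.3 in Trex1 WT (SD, n = 3 each), a log2 difference of 1.88 (SE 0.28), larger than those of 99.9% of the tested probe sets. In the limma fit across 27022 probe sets its Benjamini-Hochberg adjusted p was 0.0256, which describes a gene already known from this contrast. The call was lost without Trex1 KO A, B or C or Trex1 WT A or C (limma adjusted p of 0.0811, 0.146, 0.164, 0.105 and 0.0669), with log2 differences of 2.01, 1.81, 1.83, 1.68 and 1.75 in the same order. It was lost too when the Actb ratio was added to the fit (0.117, log2 difference 2.54).

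The other Zbp1 probe set (1419604_at) gave the same direction with another order of animals. Its signals were 190, 385 and 226 in Trex1 KO A to C, against 72.7, 38.3 and 121 in Trex1 WT A to C. The genotypes did not overlap here either, but Trex1 WT B was the lowest array, under the highest bacterial control, whereas on the brighter probe set it was the highest of the Trex1 WT arrays. The log2 difference was 1.64 (SE 0.37) and was not called. Within pairs it was 1.21, 2.88 and 0.82 in A, B and C, against 2.03, 1.37 and 2.25 on the brighter probe set, so pair B was the widest by one and the narrowest by the other. With the Actb ratio in the fit, the dimmer probe set gave 0.44 and the brighter 2.54. What sets the 2 probe sets apart was not tested.

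**Figure D1:**
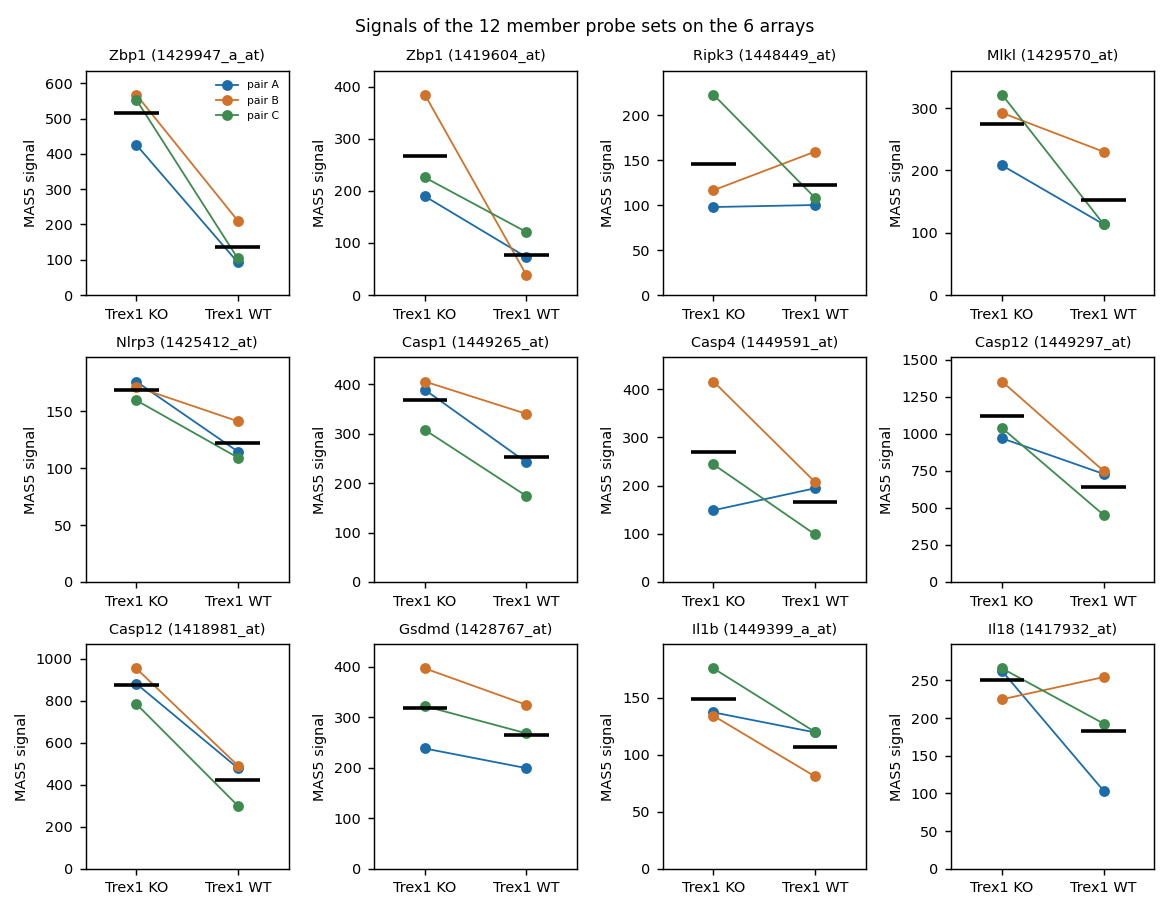
MAS5 signal (arbitrary units, linear axis from 0) of each of the 12 probe sets in Trex1 KO (left) and Trex1 WT (right) hearts; coloured points are arrays joined by littermate pair and black bars are group means (n = 3 each). The genotypes do not overlap for both probe sets of Zbp1 and of Casp12 or for Nlrp3 and Il1b, and the lines of Ripk3, Casp4 and Il18 run in both directions.

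The necroptosis genes downstream of Zbp1 did not share one pattern over the pairs. Ripk3, the kinase that ZBP1 engages, had signals of 97.9, 117 and 223 in Trex1 KO A to C, against 100, 160 and 108 in Trex1 WT A to C. The genotypes overlapped, and the single high array was Trex1 KO C. Its log2 difference was 0.17 (SE 0.32), the smallest of the members, with -0.03, -0.40 and 0.94 in pairs A to C, and it was -0.22 without pair C. Mlkl, the pseudokinase that permeabilises the membrane, had signals of 208, 292 and 321 in Trex1 KO A to C, against 113, 230 and 114 in Trex1 WT A to C. Trex1 KO was the higher littermate in all 3 pairs, but Trex1 WT B was above Trex1 KO A, so the genotypes overlapped. The log2 difference of Mlkl was 0.83 (SE 0.29) and was not called (limma adjusted p = 0.776).

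The inflammasome sensor Nlrp3 had signals of 176, 172 and 160 in Trex1 KO A to C, against 115, 141 and 109 in Trex1 WT A to C. The genotypes did not overlap, and the Trex1 KO animals lay close together (169 ± 8.51, against 122 ± 17.1 in Trex1 WT, SD, n = 3 each). The log2 difference was small at 0.43 (SE 0.21). It was not called, and it was at percentile 92.4 of the differences of all tested probe sets.

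The 3 neighbouring inflammatory caspases were higher on average in Trex1 KO but differed in how evenly. Casp12, which is grouped with the inflammatory caspases by sequence and has been linked to the endoplasmic reticulum, had signals of 969, 1353 and 1039 in Trex1 KO A to C on its brighter probe set (1449297_at), against 729, 749 and 452 in Trex1 WT A to C. Its other probe set (1418981_at) had 881, 954 and 785 in Trex1 KO A to C, against 479.5, 491.5 and 300.4 in Trex1 WT A to C. Both probe sets kept every Trex1 KO array above every Trex1 WT array, and on both the lowest Trex1 WT array was C. The log2 differences were 0.80 (SE 0.20) and 1.04 (SE 0.19), and neither was called. With littermate pairs as a block, the dimmer probe set was called (limma adjusted p = 0.0139) and the brighter was not (0.0822).

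Casp1, the protease that matures interleukin 1 beta and interleukin 18, had signals of 389, 406 and 308 in Trex1 KO A to C, against 242, 340 and 174 in Trex1 WT A to C. The knockout was the higher littermate in each pair, yet Trex1 WT B was above Trex1 KO C, so the genotypes overlapped. The log2 difference was 0.55 (SE 0.24) and was not called. Casp4 had signals of 149, 416 and 244 in Trex1 KO A to C, against 194, 207 and 98.6 in Trex1 WT A to C. Pair A ran the other way, with log2 differences of -0.35, 0.95 and 1.18 in pairs A to C and a mean of 0.59 (SE 0.37). Its Trex1 KO animals had the widest spread of any member relative to the mean (270 ± 135, against 167 ± 59.4 in Trex1 WT, SD, n = 3 each). With the Actb ratio in the fit, the log2 differences were 1.24 for Casp1, 1.26 for Casp4 and 1.35 and 1.59 for the brighter and dimmer Casp12 probe sets, none of them called. Probe sequences were not analysed here, so cross-hybridisation between these related caspases was not tested.

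Gsdmd, the pore-forming substrate of caspase-1 and CASP4, had signals of 238, 396 and 322 in Trex1 KO A to C, against 199, 324 and 268 in Trex1 WT A to C. Pair B was the highest and pair A the lowest in both genotypes, and the pairs differed more than the genotypes did. The log2 differences were 0.24, 0.28 and 0.25 in pairs A to C, the most even of the members, with a mean of 0.26 (SE 0.23) that was not called.

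The 2 cytokine genes had smaller differences than Zbp1. Il1b, which encodes interleukin 1 beta, had signals of 137, 134 and 176 in Trex1 KO A to C, against 120, 81.0 and 120 in Trex1 WT A to C. The genotypes did not overlap, though the lowest Trex1 KO array, at 134, was close to the 2 Trex1 WT arrays at 120. The log2 difference was 0.43 (SE 0.25), and it was 0.11 with the Actb ratio in the fit. Il18, which encodes interleukin 18, had signals of 262, 225 and 266 in Trex1 KO A to C, against 104, 254 and 193 in Trex1 WT A to C. The genotypes overlapped, and the log2 differences of 1.22, -0.17 and 0.43 in pairs A to C had a mean of 0.50 (SE 0.28). Neither cytokine was called.

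**Figure D2:**
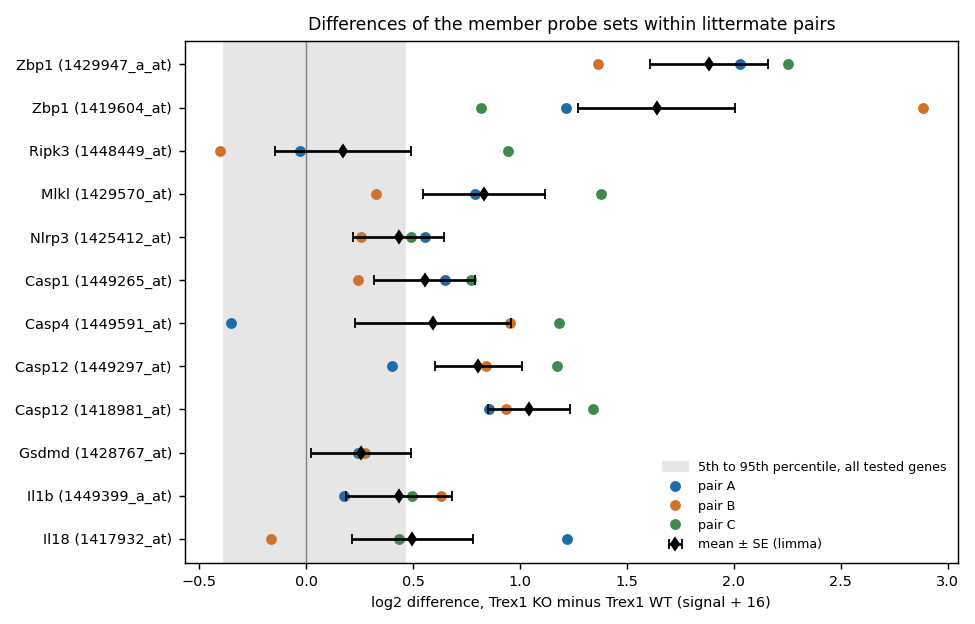
Log2 difference (Trex1 KO minus Trex1 WT, signal + 16) of the 12 probe sets; coloured points are the 3 littermate pairs, black diamonds the mean with its SE from limma, and the grey band the 5th to 95th percentile of all tested genes (-0.38 to 0.46). Zbp1 lies farthest right, Ripk3, Gsdmd, Nlrp3 and Il1b lie inside the band by their means, and Ripk3, Casp4 and Il18 have at least 1 pair below 0.

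Across the members, all 12 probe sets passed the filter on dim signals, and the Trex1 WT mean alone was above its level of 53.8 for each. By the brightest probe set of each gene, 1 of the 10 members was called higher in Trex1 KO and 0 lower (limma, adjusted p under 0.05), against 0.312% and 0.039% of 12808 tested genes. At an unadjusted p under 0.05 these were 4 and 0, against 3.06% and 2.3% of the tested genes. With littermate pairs as a block the members' counts stayed at 1 and 0, against 0.531% and 0.0937% of genes. The differences of all 10 members were above 0, with a median of 0.53 (0.50 for the other 9 without Zbp1), where the median of all tested genes was -0.02. The median of the 10 was 0.48, 0.30 and 0.86 in pairs A to C. Trex1 KO was the higher littermate in all 3 pairs for 7 of the 10, as for 13.1% of all tested genes. The 3 Trex1 KO arrays lay above the 3 Trex1 WT arrays for 4 of the 10, Zbp1, Casp12, Nlrp3 and Il1b, as for 5.06% of all tested genes. Since the members were chosen with results of this contrast already known, nothing is read from these shares.

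**Figure D3:**
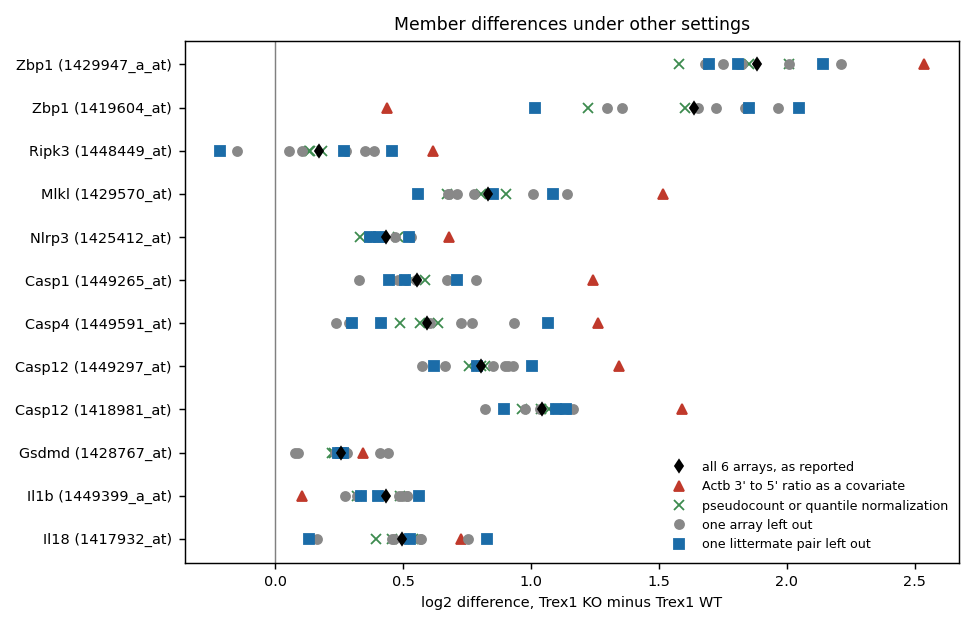
Log2 difference (Trex1 KO minus Trex1 WT) of each member probe set as reported (black diamonds) and with 1 array or 1 littermate pair left out, another pseudocount or scaling, or the Actb ratio in the fit. Only Ripk3 falls below 0 in any setting shown; that ratio moves the 2 Zbp1 probe sets in opposite directions, to 2.54 and 0.44.

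Other genes of the same pathways had a median difference of 0.02, where that of all tested genes was -0.02. They were listed by function, but with earlier results of these data known. Of 90 symbols in 7 lists, 72 had a probe set and 64 were bright enough to test. Of these 64, 1 was called higher and 0 lower in Trex1 KO (limma, adjusted p under 0.05), against 0.312% and 0.039% of all tested genes. At an unadjusted p under 0.05 the counts were 8 and 1 (12.5% and 1.56%, against 3.06% and 2.3% of all tested genes). With littermate pairs as a block, 3 were called higher and 0 lower, against 0.531% and 0.0937% of all tested genes. All 3 Trex1 KO arrays were above all 3 Trex1 WT arrays for 10 of the 64 (15.6%, against 5.06% of all tested genes). Nothing is read from these shares either.

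The gene called was Irf7, a transcription factor of the interferon alpha genes and one of 9 tested regulators. It had signals of 2930, 5615 and 3874 in Trex1 KO A to C, against 527, 716 and 760 in Trex1 WT A to C (log2 difference 2.57, limma adjusted p = 0.000728, and log2 difference 2.35, adjusted p = 0.116, with the Actb ratio in the fit). It was higher in each pair, by 2.44, 2.94 and 2.33 in pairs A to C. At an unadjusted p under 0.05, 3 regulators were higher and 0 lower, and the list's median was 0.23. Stat2 and Irf9, which act together in interferon signalling, had differences of 0.78 and 0.62 (limma adjusted p = 0.613 and 0.222). Irf1 had a difference of -0.29 (limma adjusted p = 0.939) and was lower in Trex1 KO in each pair. Irf2, Rela and Tbk1 were also below 0, without being called. The 2 genes added by the block were Gbp3 and Tlr3. Gbp3, a guanylate-binding protein of the family that exposes bacterial lipopolysaccharide to caspase-11, had signals of 1747 ± 437 in Trex1 KO and 839 ± 191 in Trex1 WT (SD, n = 3 each; log2 difference 1.04, limma adjusted p = 0.116, and 0.00175 with the block). The median of the 7 tested GTPases was 0.38, with 1 higher and 0 lower at an unadjusted p under 0.05, and Igtp and Irgm2 were at -0.58 and -0.52 without being called. Tlr3, a sensor of double-stranded RNA that can feed into RIPK3 through TRIF, had signals of 620 ± 90.0 in Trex1 KO and 341 ± 65.0 in Trex1 WT (SD, n = 3 each; log2 difference 0.84, limma adjusted p = 0.200, and 0.035 with the block).

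Among the other 19 tested genes of death receptor and necroptosis signalling 0 were called by limma in either fit. Over all 20 the median was 0.03, and at an unadjusted p under 0.05, 3 were higher and 0 lower. Adar, the RNA editing enzyme that limits ZBP1 activation, had a difference of 0.46, and Casp8, the protease that restrains RIPK3, one of 0.16 (limma adjusted p = 0.609 and 0.971). Of 8 tested inflammasome sensors and adaptors 0 were called by limma and 0 passed an unadjusted p under 0.05. The smallest p was that of Naip5, a receptor of bacterial flagellin (0.60, limma adjusted p = 0.955). Their adaptor Pycard had a difference of 0.10, and the list's median was 0.10. Of 4 tested genes of gasdermins and membrane rupture 0 were called and 0 passed an unadjusted p under 0.05. Among these Gsdme, a gasdermin cut by caspase-3, had a difference of 0.28 and Ninj1, which ruptures the membrane of dying cells, one of 0.12 (limma adjusted p = 0.955 for both). Of 11 tested genes of the interleukin 1 family and receptors 0 were called, with 1 higher and 1 lower at an unadjusted p under 0.05. The receptor Il1r1 had signals of 116, 149 and 199 in Trex1 KO A to C, against 236, 374 and 197 in Trex1 WT A to C (log2 difference -0.72, limma adjusted p = 0.842). The decoy Il18bp, which binds interleukin 18, had a difference of 0.41 (limma adjusted p = 0.891). Of 5 tested genes of other caspases and their activator Apaf1 0 were called and 0 passed an unadjusted p under 0.05. Their differences lay between -0.16 (Casp6) and 0.09 (Apaf1).

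**Figure D4:**
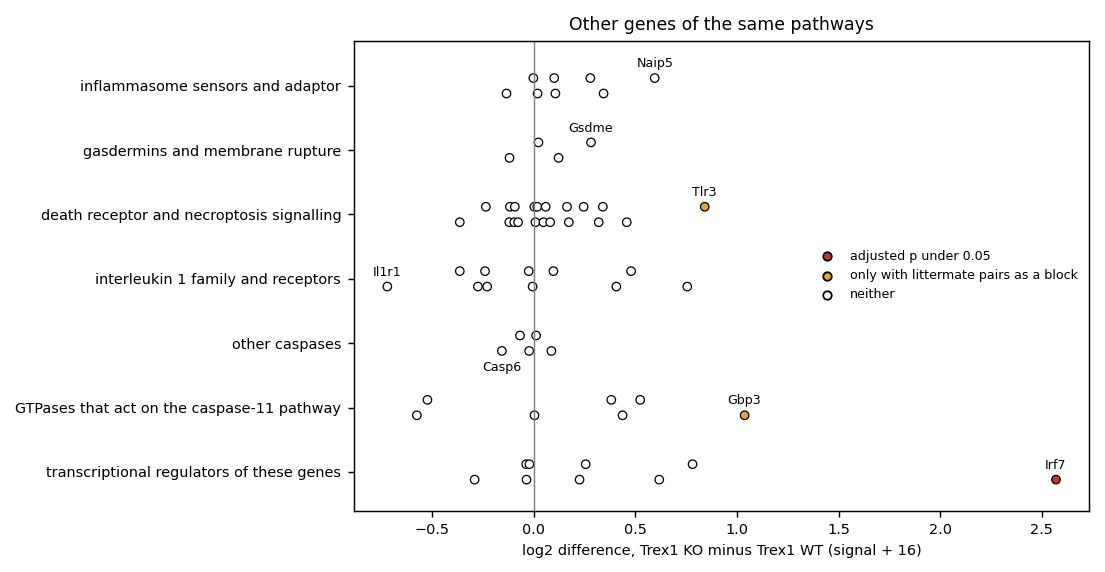
Log2 difference (Trex1 KO minus Trex1 WT, signal + 16) of tested genes of 7 lists, 1 point per gene by its brightest probe set; red points were called with groups alone, orange points only with littermate pairs as a block. Irf7 is the only red point, Gbp3 and Tlr3 are orange, and most other points lie within 0.5 of 0.

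The genes whose profiles lay closest to that of Zbp1 were sought by the root mean square difference between mean-centred log2 values over the 6 arrays, among 12807 other tested genes. This measure contains the genotype difference for which Zbp1 was noted. Zbp1 was taken by its brighter probe set, and its other probe set puts the Trex1 WT animals in another order. The closest were Mastl (0.217), Rsad2 (0.222), Dhx58 (0.225), Ifi213 (0.233) and Gm4951 (0.258). Mastl, a kinase of mitosis, had signals of 101, 113 and 122 in Trex1 KO A to C, against 21.9, 49.2 and 12.7 in Trex1 WT A to C, the last 3 under the highest bacterial control, and was not called (limma adjusted p = 0.281). Rsad2, the antiviral enzyme viperin, had signals of 6344, 9189 and 7013 in Trex1 KO A to C, against 2160, 3056 and 1906 in Trex1 WT A to C (limma adjusted p = 0.00382). Of the members, Mlkl was closest to Zbp1 at 0.531, rank 62 of 12807, followed by Casp12 at 0.631 and rank 99. Ripk3 was farthest at 0.910 and rank 1413. Between members the closest profiles were those of Casp1 and Nlrp3 (0.200) and of Casp1 and Casp12 (0.224). The measure is small between any genes that vary little over the arrays. Distances between genes that are not members were not computed, so no shared behaviour is read from these values.

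**Figure D5:**
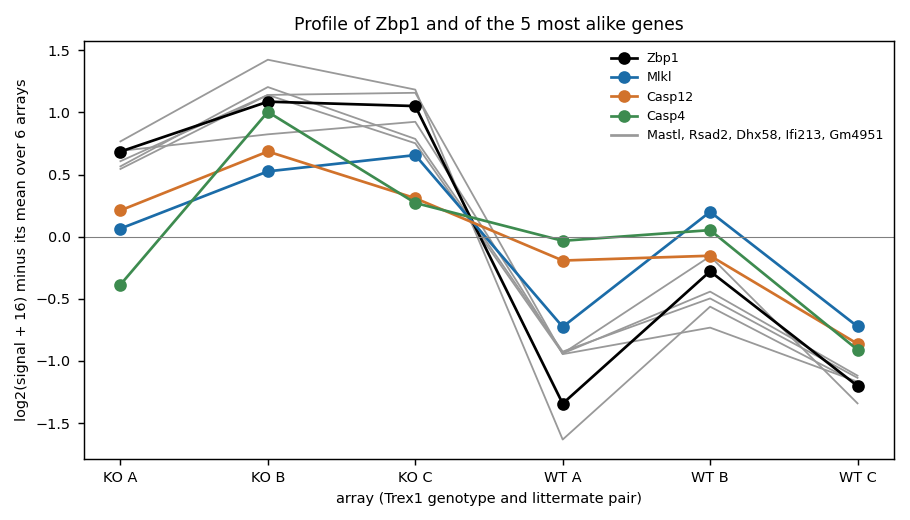
Log2(signal + 16) minus its mean over the 6 arrays, for Trex1 KO A to C (left) and Trex1 WT A to C (right); black is Zbp1, coloured lines are Mlkl, Casp12 and Casp4, and grey lines are the 5 genes closest to Zbp1. Zbp1 and the grey lines are above 0 on all Trex1 KO arrays and below 0 on all Trex1 WT arrays. Trex1 WT B is the highest Trex1 WT array for Zbp1 by its brighter probe set, drawn here, and the lowest by the other.

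Markers of 3 kinds of immune cell moved unevenly with the animals. The 11 monocyte and macrophage markers had summed signals of 15187, 20322 and 16016 in Trex1 KO A to C and 14432, 19807 and 12310 in Trex1 WT A to C. None of the 11 was at or under the highest bacterial control on all arrays, 0 were called (1 higher and 0 lower at an unadjusted p under 0.05), and the ranges overlapped. The 6 neutrophil markers had summed signals of 491, 1618 and 1249 in Trex1 KO A to C, against 733, 655 and 589 in Trex1 WT A to C, with Camp at or under the highest bacterial control throughout. Of 3 tested 0 were called by limma or passed an unadjusted p under 0.05. Those too dim to test went both ways, with log2 differences of 1.36 for Mpo, 0.21 for Camp and -1.48 for Elane. The 5 natural killer markers had 704, 2187 and 1015 in Trex1 KO A to C, against 581, 830 and 583 in Trex1 WT A to C, with 0 of 5 called (1 higher and 0 lower at an unadjusted p under 0.05). These sums are set mostly by a few bright probe sets and do not measure cell numbers. In Trex1 KO B, Lyz2 and Csf1r had 9301 and 4728 of the 20322. S100a8 and S100a9 had 678 and 736 of the 1618, and Gzma had 1582 of the 2187. Trex1 KO B had the highest sums of all 3 lists, and it was also the highest array for Zbp1, Casp1, Casp4, Casp12 and Gsdmd. For the other members it was not: Ripk3, Mlkl, Il1b and Il18 were highest in Trex1 KO C and Nlrp3 in Trex1 KO A. The 5 endothelial markers had a median difference of -0.26, with 0 called (0 higher and 1 lower at an unadjusted p under 0.05). The 4 fibroblast markers had one of 0.01, with 0 called and 0 at an unadjusted p under 0.05. The part of these cells in the members' signals was not tested. The 3 atrial markers had summed signals of 28319 to 35908 in Trex1 KO and 11046 to 19109 in Trex1 WT, nearly all of it from Nppa, which stressed ventricle also makes, with Sln at or under the highest bacterial control throughout. Nppa was not called (limma adjusted p = 0.126, and 0.00886 with the block).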

How the data were processed

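The authors deposited 1 summarised intensity per probe set and array, linear and computed by MAS5 per the submitters' processing notes; the sources used here do not give its version and settings. The deposited arrays shared a 2% trimmed mean of 500.0 and were not normalised again. Probe sets were named through the platform annotation, and 34741 of 34945 with a single symbol matched a RefSeq gene identifier (GRCm38.p6). The brightest single-symbol probe set stood for a gene. Signals were transformed to log2(signal + 16), and probe sets with a mean at or above the 40th percentile (a signal of 53.8) were tested, 27022 of 45037. Trex1 KO and Trex1 WT (3 arrays each) were compared with limma 3.58.1 in R 4.3.3 (lmFit, eBayes with an intensity trend, 4 residual degrees of freedom), two-sided, with Benjamini-Hochberg adjustment across all tested probe sets and a threshold of 0.05. The fit was also run on simulated data with independent normal noise and no littermate pairs, and no result here rests on it.

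The members, gene lists and alternatives were chosen with earlier results of these data known. Named genes were the members, Trex1, Rag2, the called genes of each pathway list or its gene with the smallest p, and the 5 genes closest to Zbp1. Other genes were named after their values were seen: Adar, Casp8, Pycard, Ninj1, Il18bp, Igtp, Irgm2, Stat2, Irf9, Irf1, Irf2, Rela, Tbk1, Apaf1 and Nppa. So were the markers Mpo, Elane, Lyz2, Csf1r, S100a8, S100a9 and Gzma. Rag2, disrupted in all animals, had signals of 76.2 ± 18.7 in Trex1 KO and 51.5 ± 38.8 in Trex1 WT. Littermate pairs come from the series' design text. Deviations from group means correlated across probe sets at 0.151, 0.192 and 0.147 within pairs A to C, and at most at 0.0101 between animals of different pairs. Such deviations cancel within each genotype, so the values within and between pairs are not independent of each other. The number of arrays limits the precision. One further promoter motif is not reported here.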

Additional observations from a re-analysis of the deposited data

How the results depend on the processing

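Under 16 alternatives the members' 192 recomputed differences kept their sign except for Ripk3, which was -0.22 without pair C and -0.15 without Trex1 KO C. Leaving out the 10 in which the Zbp1 call was lost, 9 moved by more than 1 SD between replicates. Of those 9, 8 came with the Actb ratio, which separates the genotypes, as a covariate. Among those left out, the brighter Zbp1 probe set went from 1.88 to 2.54 with that covariate. The Zbp1 call was kept under 6 and lost under 10. The 1 member called higher became 0 with the Actb covariate, in eBayes without an intensity trend, without the filter, without pair A and without pair C, and 0 to 1 when single arrays were left out. The other pathway genes called higher numbered 0 with the covariate, 3 with littermate pairs as a replicate block, and 1 to 2 without single arrays. Of all tested probe sets limma called 59 higher and 7 lower in Trex1 KO. The counts were 105 and 16 with the replicate block, 24 and 4 without the trend, 18 and 1 with the covariate, 33 to 85 and 3 to 9 without single arrays, and 23 and 0 without pair A. Without pair B the number lower was 12, and without pair C the counts were 34 and 4. The causes of these changes were not tested. An ISRE core with a spacer of 3 bases was in 0 of the 10 promoter windows as well. Signals near the bacterial controls, as for Il1b, limit what can be seen.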
